A study of Mus musculus with 9 samples.

Results

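RNA profiles of Lewis lung carcinoma (LLC) cells recovered from tumours under the skin were compared with those of the same cells grown in culture dishes, on 3 arrays each out of the 9 arrays of the study. Groups were taken from the sample titles, and all 19505 genes with a symbol entered the comparison, 1 array feature per gene. All 9 samples were the GFP-labelled 3LL line, a mouse lung cancer line given as C57/BL6, so every group carried the same GFP label. The dish group was kept as a culture for 7 days. For the subcutaneous group the cells were transplanted under the skin and GFP-positive cells were isolated 7 days later, and for the remaining group, used here only as a second site, they were transplanted into the lung and isolated in the same way. A GFP isolation is named for the transplanted groups and not for the dish group, so growth under the skin and the isolation itself cannot be told apart. Whether the 3 samples of each group stem from different animals or culture dishes is not stated, so the p-values speak to the spread of these arrays, part or all of which could be technical.

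LLC is a transplantable carcinoma line that grows rapidly in immunocompetent mice of its own strain. Cells in a monolayer have medium rich in glucose, amino acids and oxygen, and serum that carries lipoproteins and growth factors, whereas cells in a solid tumour depend on vessels, neighbouring matrix and host cells. Gene programs known to answer to these surroundings include the low-oxygen response driven by hypoxia-inducible factors, sterol and fatty acid synthesis driven by the SREBP factors, antigen presentation on MHC class I under interferon, and the cell cycle.

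Values are log2 signals of a 1-colour whole-transcript array, as deposited. The arrays were alike in overall level: 29.0% to 32.6% of genes on the dish arrays and 28.0% to 31.4% on the subcutaneous arrays exceeded the signal that 90% of the negative control probes stay under, which is used here as a guide to background. The median of 4804 expressed genes was 10.74 to 10.98 and 10.73 to 10.90. The bacterial hybridization controls read 12.01 ± 0.15 (SD, n = 3) on dish and 12.83 ± 0.11 on subcutaneous arrays, and the RNA integrity number (RIN) was 8.50 ± 0.10 and 7.97 ± 0.57, with 8.6, 7.5 and 7.8 for subcutaneous replicates 1, 2 and 3. RIN was entered as a covariate in an alternative fit, and the part of the hybridization controls in the results was not tested.

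Of 19505 genes, 2513 (12.9%) differed between subcutaneous and dish cells at an adjusted p under 0.05 (limma with Benjamini-Hochberg adjustment), 1251 higher (6.41%) and 1262 lower (6.47%). Such genes are termed called, and "rose" and "fell" refer only to them. The difference was at least 2-fold for 1041 of the genes that rose and 993 of those that fell, and at least 4-fold for 262 and 153. The median difference over all genes was -0.01 on the log2 scale. Of the called genes, 448 were below the background guide on all 6 arrays, 204 only on the 3 dish arrays and 197 only on the 3 subcutaneous arrays. Where 1 group was below the guide throughout, the bound given as "at least" is the brighter group's mean minus the mean guide of the dimmer group's arrays. With RIN as a covariate 1280 genes were called, and without dish replicate 2 the count was 1639. In the same fit 2927 genes differed between subcutaneous and lung cells, 1130 higher (5.79%) and 1797 lower (9.21%) under the skin, and that test is quoted where lung values are set beside the others.

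The largest rise was that of Ly6c1, a lipid-anchored surface antigen of the Ly6 family. It read 6.27, 4.65 and 5.35 on the dish arrays and 17.60, 17.47 and 17.68 on the subcutaneous arrays. All dish values were below the background guide, and the SD of the subcutaneous values was 0.11. The difference was 12.16 with a standard error of 0.40, or at least 10.16 (limma adjusted p = 3.09e-09). Its close relative Ly6c2 went from 5.60, 6.64 and 5.55 to 13.30, 14.39 and 14.33, at least 6.58 higher. The Ly6c genes are near-identical copies, so that signal may be shared between their probes and their separate values are uncertain. A further member, Ly6e, was bright in dish cells as well (15.84, 15.94 and 15.78) and rose to 18.47, 18.31 and 18.53, while Ly6d stayed below background in both groups. On the lung arrays Ly6c1 read 11.46, 12.81 and 11.91, between the other groups, and its level under the skin was 5.52 higher than there (adjusted p = 1.38e-05).

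The genes that came next, Dcn and Lum, code for small leucine-rich proteoglycans. Of 10 measured genes of that family, a list drawn up after values were seen, these were the 2 called; the other 8 were not, and 7 of them were below background on all 6 arrays. Decorin (Dcn), which coats collagen fibrils and binds TGF-beta, read 7.32, 6.99 and 6.85 in dish cells and 16.47, 17.09 and 16.37 in subcutaneous cells, a difference of 9.59 ± 0.60 (SE; adjusted p = 1.61e-06). Lumican (Lum), of the same family, read 5.61, 5.80 and 5.99 against 13.19, 13.92 and 12.48, at least 5.77 higher. Neither gene had overlapping groups, which was a condition for a place among the largest rises. Dcn was above background on 1 of the 3 dish arrays, so the size of its rise is limited by background. Their levels in lung tumour cells differed from each other in pattern: Dcn was at 13.94, 12.15 and 10.53 there, well above the dish arrays, and Lum at 7.33, 7.51 and 6.38, near background.

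The rest of the 15 largest rises were of diverse function. The Wnt antagonist Dkk2 (at least 4.23), the glutathione transferase Gstt1 (at least 3.77), the simple-epithelial keratin Krt18 (at least 3.60), the LIM-domain protein gene Crip1 (at least 4.62), the membrane-bound semaphorin Sema7a (at least 2.90), the transcriptional cofactor Eya2 (at least 3.66) and the AP-1 subunit Fosb (at least 3.49) were all below background on the dish arrays. The urea transporter Slc14a1 rose by 5.93, from 9.09, 8.32 and 7.79 to 14.14, 14.50 and 14.36. Apobec3, a cytidine deaminase that restricts retroviruses, rose by 5.46, from 7.76, 8.55 and 6.73 to 13.12, 13.21 and 13.07. Krt18 was nearly the same on the 3 subcutaneous arrays (10.99, 11.03 and 11.06). The actin-binding supervillin gene Svil (4.59) and the angiogenic factor Pgf (5.17) completed the group, and Pgf varied most between subcutaneous arrays (10.91, 14.09 and 11.54).

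**Figure D1:**
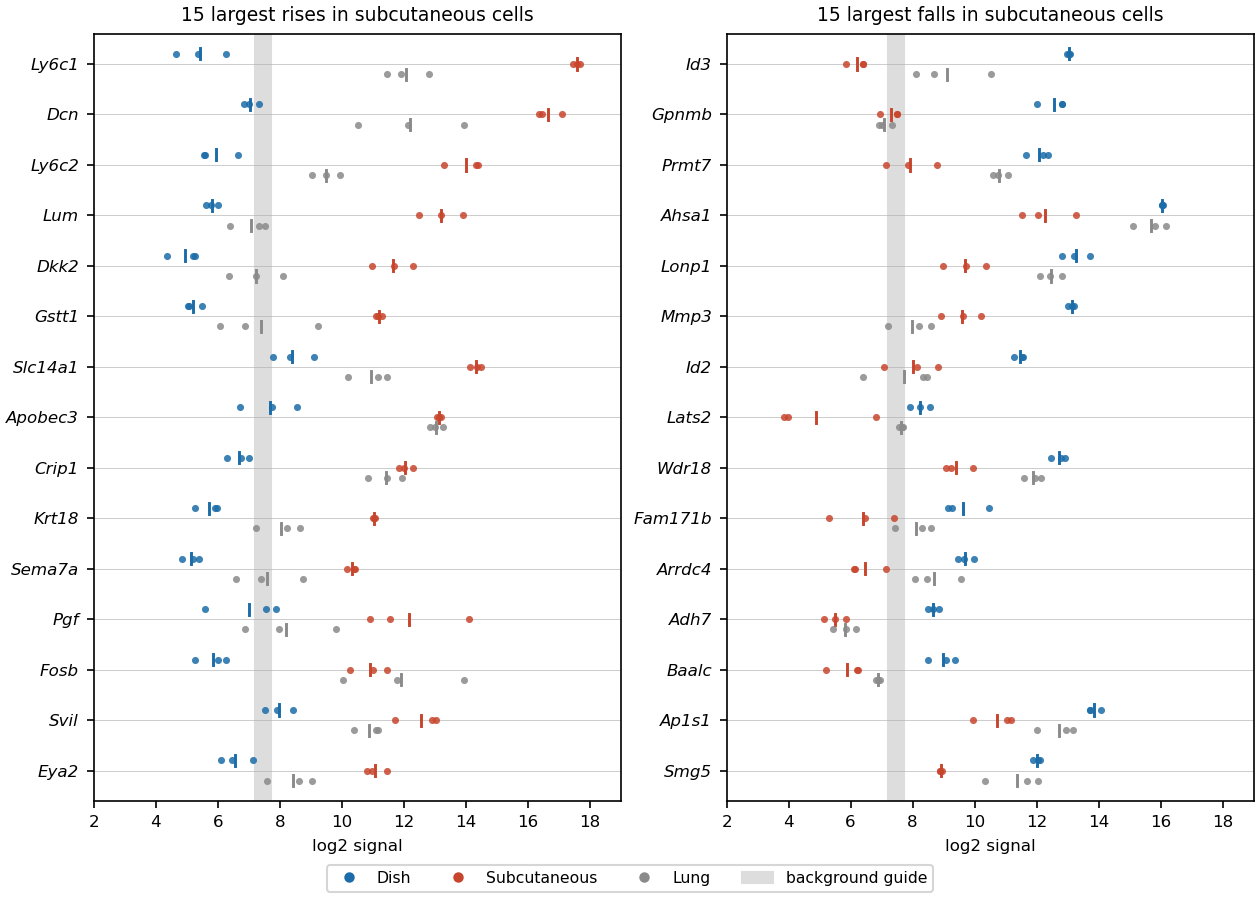
Log2 signals of the 15 genes with the largest rise (left) and the 15 with the largest fall (right) from dish to subcutaneous cells. Each dot is an array, ticks are group means (n = 3), and the grey band spans the background guide over the 9 arrays. Only genes whose dish and subcutaneous values do not overlap were eligible, so the separation of the dots follows from the choice. Ly6c1 has the largest difference of group means, 12.16.

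The largest fall was that of Id3, an inhibitor of basic helix-loop-helix factors and a direct target of BMP signalling. Its values were 13.09, 13.04 and 12.97 in dish cells and 5.86, 6.38 and 6.39 in subcutaneous cells, all of the latter below background, so the fall was at least 5.53 (adjusted p = 2.61e-06). Gpnmb, a melanosome and lysosome glycoprotein, fell by 5.24, from 12.81, 12.83 and 12.01 to 6.95, 7.48 and 7.49. In lung tumour cells Gpnmb read 7.35, 6.90 and 7.01, and the difference of 0.22 between the tumour sites did not pass the test (adjusted p = 0.661). At each tumour site it was above background on 1 of 3 arrays. The size of its fall and the comparison of the sites are therefore limited by background. The matrix-degrading stromelysin Mmp3 fell by 3.54, from 13.15, 13.21 and 13.01 to 8.91, 9.62 and 10.22. Id2 fell from 11.54, 11.27 and 11.55 to 7.07, 8.81 and 8.15.

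The other large falls were of diverse function. The Hsp90 co-chaperone gene Ahsa1 read 16.05, 16.08 and 16.03 in dish cells and 13.26, 11.53 and 12.03 in subcutaneous cells, a fall of 3.78. The mitochondrial protease gene Lonp1 fell by 3.58, the arginine methyltransferase gene Prmt7 by 4.14, the ribosome assembly factor gene Wdr18 by 3.31, the clathrin adaptor subunit gene Ap1s1 by 3.12 and the nonsense-mediated decay gene Smg5 by 3.09. Each of these 6 genes was also lower under the skin than in the lung, with differences of -1.99 to -3.42 between the tumour sites (adjusted p = 0.000225 to 0.00321). The kinase gene Lats2, a brake on YAP, fell by at least 0.73, with subcutaneous replicate 1 (6.82) apart from replicates 2 and 3 (3.86 and 3.98). The last of the 15 were Fam171b, the arrestin-related Arrdc4, the alcohol dehydrogenase Adh7 and Baalc, each below background in subcutaneous cells and lower by at least 1.16 to 2.18.

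Genes of 39 cell programs were then followed as lists. Every list count below stands beside the shares over all genes, 6.41% called higher and 6.47% called lower. A list with few calls may be near those shares. Sterol synthesis, fatty acid synthesis, MHC class I presentation and the immediate early genes were the lists with 7 or more genes rising and at most 1 falling, together with the integrins and laminins. DNA replication, mitosis, tRNA charging and the amino acid response had 9 to 13 genes falling and none rising. By limma's unadjusted p under 0.05, 1 mitosis gene was higher and 0 genes of the other lists of that group. At that threshold 0 genes were lower in the sterol, fatty acid and immediate early lists. In the MHC class I list and in the integrin and laminin list 1 gene each was lower. Over all 19505 genes 2436 were higher and 2570 lower at that threshold.

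**Figure D2:**
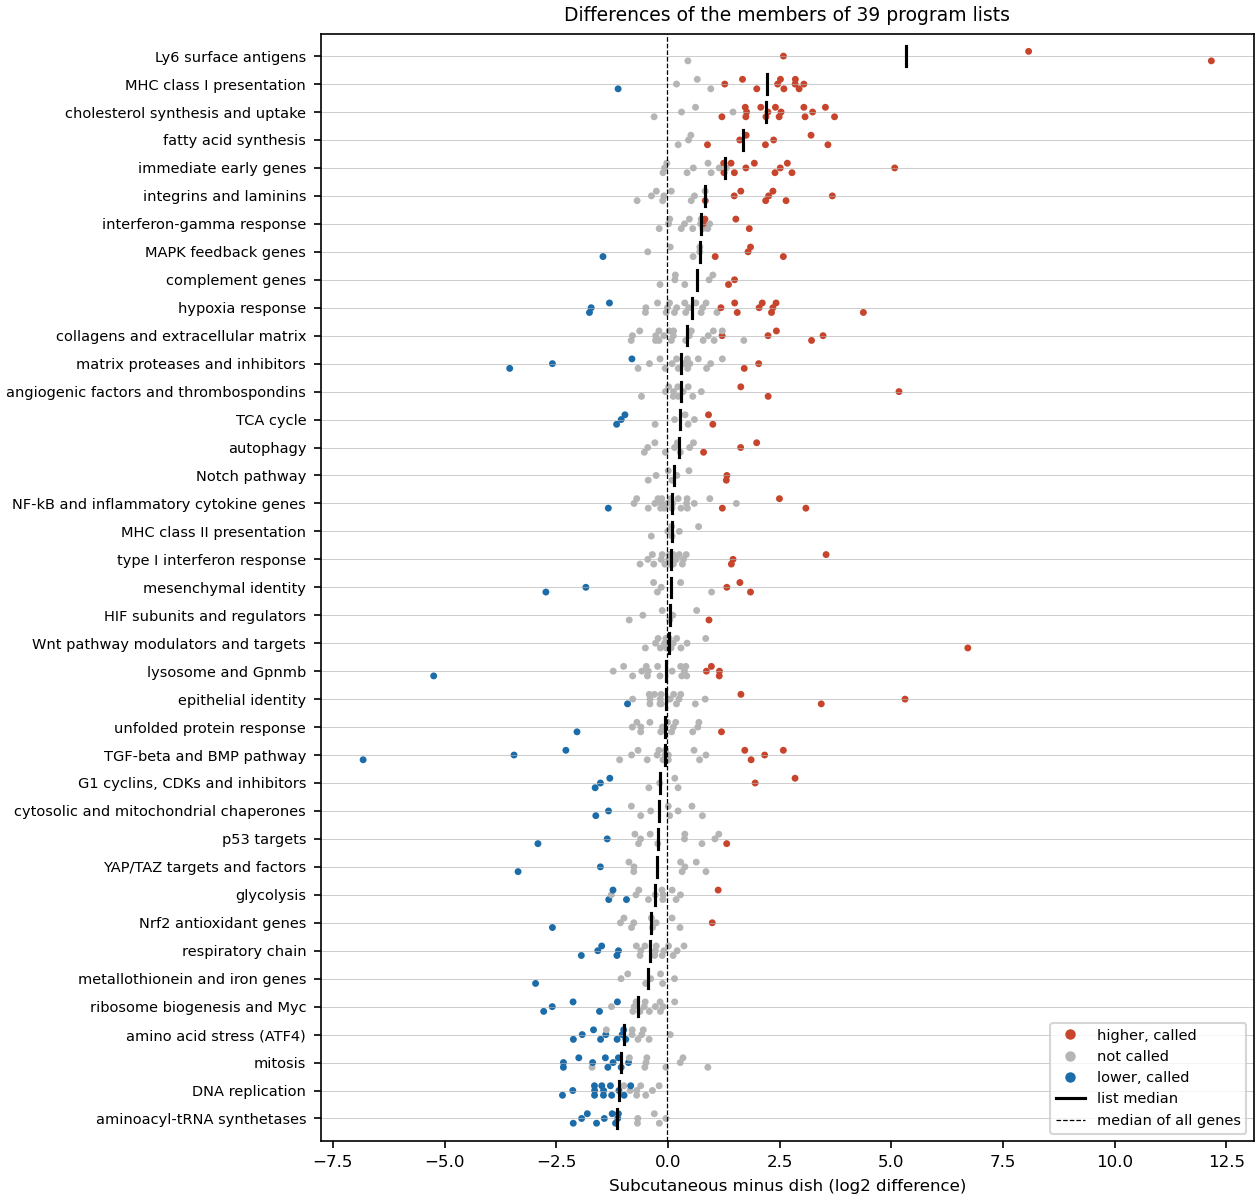
Log2 differences between subcutaneous and dish cells for the measured members of 39 program lists, ordered by list median. Each dot is a gene, coloured by its call, black ticks are list medians, and the dashed line is the median of all genes (-0.01). List medians run from -1.15 for aminoacyl-tRNA synthetases to 5.33 for the 4 Ly6 genes.

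Sterol synthesis rose almost throughout. Of 19 measured genes of cholesterol synthesis and its control, 15 rose and 0 fell, with a median of 2.19 against -0.01 over all genes and against 6.41% of all genes called higher. Farnesyl-diphosphate farnesyltransferase (Fdft1, squalene synthase), the first enzyme committed to sterols, read 9.54, 9.05 and 9.36 in dish cells and 13.23, 12.99 and 12.91 in subcutaneous cells, a difference of 3.73 (adjusted p = 9.53e-06). Methylsterol monooxygenase (Msmo1) read 7.50, 7.19 and 6.71 against 10.90, 10.68 and 10.40, a rise of 3.52. The steps before it rose too: Hmgcs1, which makes the precursor of mevalonate (at least 0.71), the mevalonate kinase partner Pmvk (2.53), Mvd (2.49), and Fdps, which makes farnesyl diphosphate (3.07). Of the later steps, Nsdhl (3.04), Cyp51, the lanosterol demethylase (2.19), and Dhcr7, which closes the pathway (at least 2.04), rose, as did Insig1, the sterol-sensing retention protein (at least 1.02). With RIN as a covariate Hmgcs1 (adjusted p = 0.0524) and Insig1 (adjusted p = 0.144) lost their calls, and Insig1 also lost its call without dish replicate 1 or 3 or subcutaneous replicate 2. For all 15 genes the values of the groups did not overlap, which in the upward direction was also so for 2770 of all 19505 genes. The other 4 were Mvk (1.46, adjusted p = 0.0577, called under 5 of the alternatives), Lss (0.62, adjusted p = 0.225), the transcription factor gene Srebf2 (0.31, adjusted p = 0.66) and Ebp (-0.31, adjusted p = 0.726).

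Across the 18 alternative settings 13 to 16 of the 19 were called higher and 0 lower. On the lung arrays the members stood between the other groups on the whole, with a median of 1.22 for subcutaneous over lung, and 11 of 19 were higher under the skin than in the lung, while 1 was lower.

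In the fatty acid list 7 of 10 genes rose and 0 fell, with a median of 1.68. Stearoyl-CoA desaturase (Scd1), which makes monounsaturated fat, read 9.98, 9.72 and 8.52 in dish cells and 12.31, 12.84 and 12.68 in subcutaneous cells, a rise of 3.20. The polyunsaturated fat desaturases Fads2 and Fads1 rose by 2.37 and 2.18, and the elongase Elovl6 by 1.75. ATP-citrate lyase (Acly), which supplies acetyl-CoA, rose by 1.61 and the lipid phosphatase Lpin1 by at least 1.46. The fatty acid synthase gene itself, Fasn, did not pass the test (0.23, adjusted p = 0.714). On the lung arrays Fasn read 15.34, 15.22 and 14.50, and its level under the skin differed from that in the lung by -1.40 (adjusted p = 0.00966). Scd1, Fads2 and Fads1, in contrast, were higher under the skin than in the lung, by 1.97, 3.28 and 1.61 (adjusted p = 0.00268, 0.000617 and 0.00634).

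**Figure D3:**
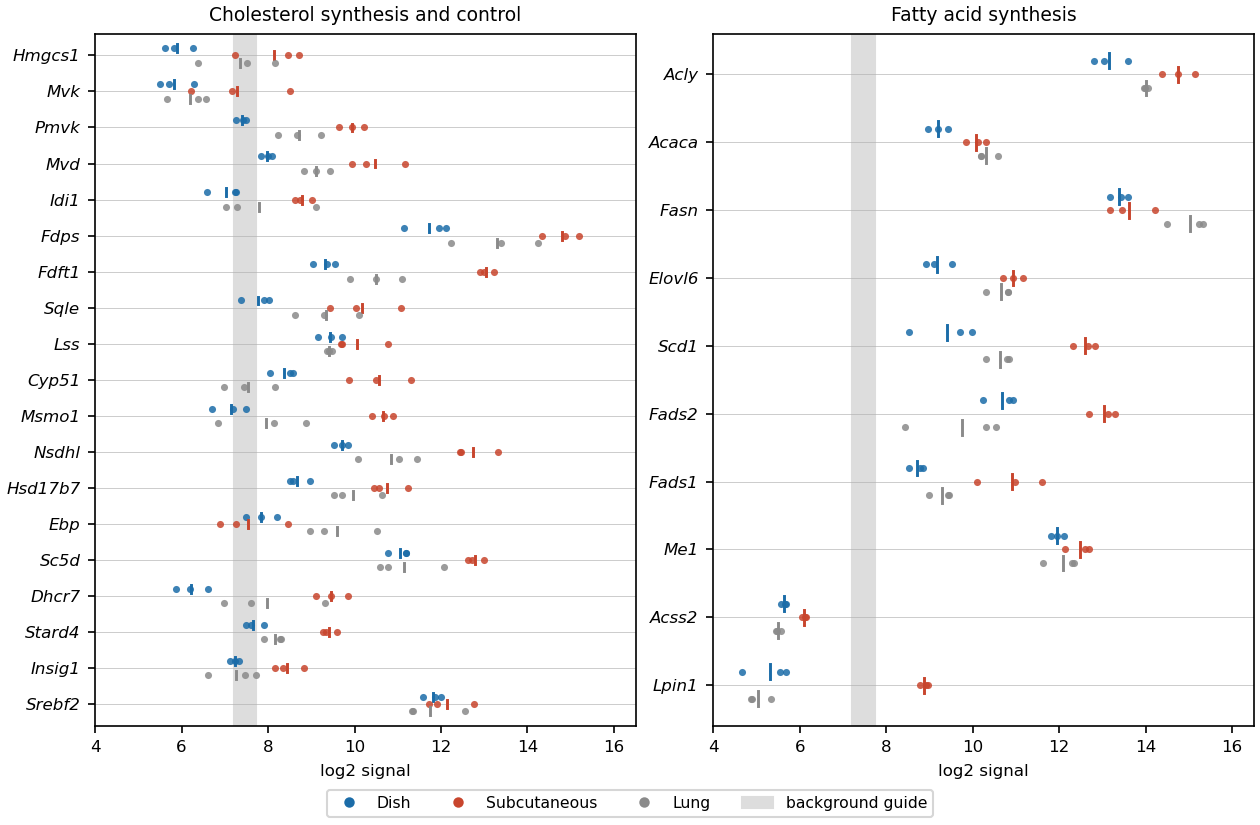
Log2 signals of 19 genes of cholesterol synthesis in pathway order, followed by control genes (left), and of 10 genes of fatty acid synthesis (right). Dots are arrays, ticks are group means (n = 3), and the grey band is the background guide. The subcutaneous dots all lie to the right of the dish dots for the 15 and 7 called genes, and not for Mvk, Lss, Srebf2 and Ebp. Called or not, 9 of the 10 fatty acid genes were separated in this way, as were 2770 of all 19505 genes.

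Promoter sequence was looked up for these genes in RefSeq (assembly GRCm38.p6), as the 250 bases before a gene's start. The sterol element of SREBP was searched as TCACNCCAC on both strands. It was found in 1 of 15 list genes with a promoter there, Hmgcs1, and in 1.22% of 15691 tested genes. The Hmgcs1 promoter, chr13:119690101-119690350 on the plus strand, is shown because its gene is the entry point to the pathway; capitals mark the match, which begins 137 bases before the start.
Hmgcs1: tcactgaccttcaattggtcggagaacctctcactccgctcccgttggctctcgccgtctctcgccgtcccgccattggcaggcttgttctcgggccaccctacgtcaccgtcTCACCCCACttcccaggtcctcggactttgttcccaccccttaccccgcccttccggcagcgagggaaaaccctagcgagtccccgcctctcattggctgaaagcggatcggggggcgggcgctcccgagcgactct
No match in the other 14 says only that these letters are not in the windows searched.

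Genes of the low-oxygen response rose in part. Of 28 measured, 9 rose and 3 fell, with a median of 0.54 against -0.01 over all genes and against 6.41% called higher and 6.47% lower among all genes. Ndrg1, a stress gene strongly induced by low oxygen, read 11.40, 11.43 and 10.38 in dish cells and 14.62, 16.72 and 14.99 in subcutaneous cells, a rise of 4.37 (adjusted p = 6.22e-05). The hydroxylase Egln3, which marks HIF for destruction and is itself a HIF target, read 12.29, 12.24 and 12.15 against 14.17, 15.12 and 14.34, a rise of 2.32. Further rises were those of Ankrd37 (2.42), the mitophagy receptor Bnip3l (2.35) and the clock repressor Bhlhe40 (at least 1.46). The vasodilator peptide gene Adm rose by 2.04, from 13.36, 13.27 and 13.50 to 14.18, 16.75 and 15.32, and lost its call without dish replicate 2 or with RIN as a covariate (adjusted p up to 0.114). The glucose transporter Slc2a1 read 17.37, 17.16 and 17.17 against 18.36, 19.26 and 18.72 and rose by 1.55.

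In each of Ndrg1, Egln3, Ankrd37, Bnip3l, Bhlhe40, Adm and Slc2a1, subcutaneous replicate 2, the sample with the lowest RIN (7.5), was the highest of the 3 and replicate 1, with a RIN of 8.6, the lowest. The part of RIN in that order was not tested beyond the covariate fit. On average over the list the subcutaneous arrays ranged from 9.77 to 10.78 and the dish arrays from 9.47 to 9.59. Other widely used markers did not pass: the vessel growth factor Vegfa differed by -0.01 (adjusted p = 0.992), the pyruvate dehydrogenase kinase Pdk1 by 0.38 (adjusted p = 0.561), Bnip3 by 1.10 (adjusted p = 0.118, or 0.0138 without subcutaneous replicate 1), and carbonic anhydrase 9 (Car9) was below background in both groups. The lipid droplet coat gene Plin2 (-1.31), Higd1a (-1.72) and the prolyl hydroxylase P4ha2 (-1.76) fell, and the call of Plin2 was lost without any 1 dish array, without subcutaneous replicate 3 or with RIN as a covariate (adjusted p up to 0.138). Of the glycolytic enzymes 1 of 15 rose and 3 fell (median -0.28): Tpi1 by -1.33, Pfkl by -1.23 and Pkm by -0.93, with a rise of 1.12 for Hk2. The calls of Hk2 and Pkm were each lost under 7 or more of the 18 alternatives, by leaving out any dish array among others (adjusted p up to 0.334 and 0.141). Among 7 genes of HIF itself 1 was called, the HIF partner subunit gene Arnt (0.92, adjusted p = 0.0476). It read 7.57, 7.33 and 7.42 in dish cells and 8.72, 8.65 and 7.70 in subcutaneous cells, and lost its call under 12 of 18 alternatives, among them leaving out any dish or lung array and RIN as a covariate (adjusted p up to 0.15). Hif1a was at 0.64 (adjusted p = 0.0816, called under 2 of the alternatives) and Epas1 was below background.

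The core letters of the hypoxia response element, ACGTG or GCGTG, were searched on both strands in the promoters of these genes. They occurred in 22 of the 23 with a promoter in the table, in all 6 of those that rose and all 3 of those that fell, and in 48.8% of 15691 tested genes. A match of 5 letters is a description and not a bound site, and it was as frequent in the genes that fell as in those that rose. Promoters of Ankrd37 (chr8:45999851-46000100, minus strand) and Egln3 (chr12:54203875-54204124, minus strand) are shown, since both genes rose in all settings tried; capitals mark the core on either strand.
Ankrd37: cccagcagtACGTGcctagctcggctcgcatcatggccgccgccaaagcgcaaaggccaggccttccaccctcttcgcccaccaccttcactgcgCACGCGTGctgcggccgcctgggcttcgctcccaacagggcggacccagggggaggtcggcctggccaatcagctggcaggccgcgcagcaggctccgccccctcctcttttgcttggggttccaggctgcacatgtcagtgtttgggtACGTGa
Egln3: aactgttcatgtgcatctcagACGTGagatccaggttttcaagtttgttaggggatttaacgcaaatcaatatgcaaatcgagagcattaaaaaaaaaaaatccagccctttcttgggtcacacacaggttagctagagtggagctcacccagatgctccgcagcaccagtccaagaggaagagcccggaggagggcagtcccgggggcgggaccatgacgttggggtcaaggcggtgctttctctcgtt

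MHC class I genes rose together. Of 14 measured, 10 rose and 1 fell (median 2.22). Beta-2 microglobulin (B2m), the light chain of every class I molecule, read 13.36, 13.22 and 12.46 in dish cells and 15.76, 16.26 and 16.15 in subcutaneous cells, a rise of 3.04 (adjusted p = 2.06e-05). The heavy chain H2-K1 read 11.09, 11.36 and 9.55 against 13.58, 13.51 and 13.45 (2.85), and H2-D1 read 9.17, 9.21 and 8.44 against 11.28, 11.57 and 11.53 (2.52). Heavy chain genes are close copies, and their probes may share signal. The immunoproteasome subunits Psmb8 (2.94) and Psmb9 (at least 0.89), the peptide pump subunit Tap1 (2.59), the peptide trimmer Erap1 (at least 1.23) and the loading factor Tapbp (1.67) rose as well. The other pump subunit, Tap2, fell by 1.12, but it was below background on all 6 arrays and the call was lost under 4 settings: without dish replicate 3 or subcutaneous replicate 2, with RIN in the model, or with the filter on dim genes, which leaves it out. Of the class I genes 10 to 11 were called higher under all 18 alternatives.

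Interferon targets outside this pathway were mostly below background. Of 24 type I interferon genes 3 rose and 0 fell (median 0.08), and 21 of the 24 were below the guide on all dish arrays, as were 21 on all subcutaneous arrays. With RIN as a covariate 1 of the 24 was called. Bst2 (tetherin), which holds budding virus at the membrane, rose by 3.54, from 12.26, 12.18 and 11.71 to 15.53, 15.57 and 15.66. In contrast Isg15 (0.07, adjusted p = 0.92), Ifit1 (0.35, adjusted p = 0.437) and Rsad2 (-0.07, adjusted p = 0.913) stayed below background. Of 16 interferon-gamma genes 4 rose (median 0.74), led by the proteasome activator Psme1 (1.82) and the GTPase gene Igtp (1.52, below background on all 6 arrays); 2 to 5 were called over the alternatives. The master factor Irf1 was at 0.78 (adjusted p = 0.112) and Cxcl10 at 0.01 (adjusted p = 0.984), both below background. No gene of the 6 in the MHC class II list was called by limma (1 was higher at an unadjusted p under 0.05), and H2-Aa and H2-Ab1 were below background. In the promoters the interferon-stimulated response element was searched on both strands as a pair of GAAA blocks with any 2 bases between them, a motif added after values were seen. It was found in 3 of 13 class I genes and 3.47% of 15691 tested genes. That of B2m (chr2:122147437-122147686, plus strand) is shown for the light chain, with the match, 139 bases before the start, in capitals.
B2m: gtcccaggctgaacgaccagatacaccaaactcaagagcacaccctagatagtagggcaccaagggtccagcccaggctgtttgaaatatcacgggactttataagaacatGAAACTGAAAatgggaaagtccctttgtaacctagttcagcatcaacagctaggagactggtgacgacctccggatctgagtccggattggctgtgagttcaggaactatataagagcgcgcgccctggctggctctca

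Immediate early genes, which code for transcription factors and regulators that respond within minutes to growth factors and stress, had 11 of 20 rising and 0 falling (median 1.28). The AP-1 subunit Fosb lay between 5.26 and 6.27 in dish cells and read 11.47, 11.01 and 10.27 in subcutaneous cells. Jun rose by 2.67, from 8.56, 8.04 and 7.41 to 10.52, 10.84 and 10.67, and the stress factor Atf3 by 2.51. Ier2 (at least 1.16) and Ier3 (at least 0.83) rose from below background. Fos itself was below background on all 6 arrays (1.15, adjusted p = 0.146, called with only the arrays of both groups or without lung replicate 3), as was Nr4a1 (-0.03, adjusted p = 0.968). With RIN as a covariate 7 of the 20 were called. Lung tumour cells, isolated in the same way, read 11.79, 13.93 and 10.03 for Fosb, and the difference between the sites did not pass (adjusted p = 0.38).

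Of 10 feedback genes of MAPK signalling, 4 rose and 1 fell. The ERK phosphatase Dusp6 read 14.30, 13.92 and 12.71 against 16.39, 16.27 and 16.01 (2.58), and the ETS factor Etv4 rose by 1.79, while another ERK phosphatase, Dusp4, fell by 1.45. Of 25 NF-kB and cytokine genes 3 rose and 1 fell (median 0.09), beside 6.41% of all genes called higher and 6.47% called lower. The fall, of the chemokine gene Ccl20, lost its call without dish replicate 1 or subcutaneous replicate 3 or with RIN as a covariate (adjusted p up to 0.12). The NF-kB inhibitor Nfkbia rose by 3.09, from 10.44, 9.62 and 9.02 to 12.82, 12.61 and 12.92, and the CSF1 receptor ligand Il34 by 1.22. Il6, Tnf and Il1b were below background in both groups.

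Matrix and adhesion genes rose in part. Of 17 integrin, laminin and basement membrane genes 8 rose and 0 fell (median 0.83). The laminin receptor subunit Itga6 read 12.49, 12.42 and 12.85 in dish cells and 15.33, 15.15 and 15.20 in subcutaneous cells (2.64, adjusted p = 2.27e-05). The basement membrane linker nidogen (Nid1) rose by 2.35, the laminin chain Lama5 by at least 0.91 and the receptor subunit Itga3 by 1.63. Of 26 collagen and other matrix genes 5 rose and 0 fell (median 0.44), led by periostin (Postn, 4.68, 4.32 and 4.65 against 7.66, 7.57 and 8.84, at least 0.60) and the lysyl oxidase Loxl3 (3.21), which crosslinks collagen. The other called genes, Sparc, Tnc and Col18a1, each lost their call without dish replicate 1 or subcutaneous replicate 3, among other arrays. The calls of Col18a1 and Sparc were also lost with RIN as a covariate, where their adjusted p was highest (0.263 and 0.116), and that of Tnc reached 0.0694 without subcutaneous replicate 3. Over the alternatives 2 to 7 of the 26 were called. The fibrillar collagens Col1a1 (0.79, adjusted p = 0.0803, or 0.0241 without dish replicate 1), Col1a2 (0.03, adjusted p = 0.97) and Col3a1 (0.52, adjusted p = 0.479) were below background on all 6 arrays.

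Among 14 angiogenic genes 3 rose: Pgf, a VEGF family ligand of FLT1 (7.88, 7.56 and 5.59 against 10.91, 14.09 and 11.54), the inhibitor Thbs2 (2.24) and Pdgfa (at least 1.07, adjusted p = 0.113 with RIN as a covariate). Of 20 matrix proteases and inhibitors 2 rose and 3 fell. Apart from Mmp3, the stromelysin gene Mmp11 rose by 1.71 (adjusted p = 0.0747 with RIN as a covariate), and Plau and Mmp10 were called while below background on all 6 arrays. The inhibitor Timp1 fell by 0.81 and lost its call under 14 of the 18 alternatives (adjusted p up to 0.267).

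Few epithelial genes and some mesenchymal genes were called. Of 20 epithelial genes (median -0.05) 3 rose and 1 fell. Those that rose were Krt18 (at least 3.60), its partner Krt8 (12.37, 11.98 and 11.68 against 13.77, 13.87 and 13.29) and the tight junction gene Cldn9 (at least 1.94). E-cadherin (Cdh1) and Epcam were below background in both groups. The call of Cdh1 (-0.90) was lost under 13 of 17 alternatives (adjusted p up to 0.161). Of 10 mesenchymal genes 3 rose and 2 fell: the homeobox gene Prrx1 (1.85), vimentin (Vim, 1.61, adjusted p = 0.0532 with RIN as a covariate) and S100a4 (1.32) were higher, and the transcription factors Snai2 (slug) and Twist2 were lower. Snai2 read 12.98, 13.05 and 12.44 in dish cells and 10.30, 10.01 and 9.97 in subcutaneous cells, a fall of 2.73, and Twist2 fell by at least 1.24.

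In the TGF-beta and BMP list 4 genes rose, all ligands or receptors, and 3 fell, all of the Id family. Tgfb1 rose by 2.16, Tgfb3 by 1.86 (adjusted p = 0.0778 with RIN as a covariate) and the co-receptor Tgfbr3 by 2.58, from 11.04, 10.52 and 9.66 to 13.04, 12.98 and 12.94. The receptor Tgfbr2 was called (1.72) while below background on all 6 arrays. Of the 4 Id genes, Id1 fell by 2.28 (14.15, 14.13 and 14.56 against 12.20, 11.93 and 11.84), Id2 by 3.45 and Id3 by at least 5.53, while Id4 was below background. The inhibitory Smad genes Smad6 and Smad7, also targets, were below background. Among 16 Wnt genes Dkk2 was the 1 called, and 2 were with the filter on dim genes or without subcutaneous replicate 1. Of 10 YAP and TAZ genes Lats2 and Crim1 fell; Crim1 (-1.51) lost its call without dish replicate 1 or 2, subcutaneous replicate 3 or with RIN as a covariate (adjusted p up to 0.105).

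Genes of the cell cycle fell in part. Of 21 DNA replication genes 13 fell and 0 rose (median -1.10), and of 19 mitosis genes 10 fell and 0 rose (median -1.05), against 6.47% of all genes called lower. The helicase subunit Mcm5 read 14.85, 14.51 and 14.34 in dish cells and 12.32, 12.03 and 12.27 in subcutaneous cells, a fall of 2.36 (adjusted p = 4.28e-05). The origin licensing factor Cdc6 fell by 2.13, from 10.03, 9.88 and 9.70 to 8.20, 7.52 and 7.49. In mitosis the spindle kinase Aurka read 12.75, 12.58 and 12.70 against 10.93, 9.95 and 10.13 (-2.34), and the anaphase activator Cdc20 fell by 2.00 and the kinesin Kif20a by 2.34. Pcna (-0.20, adjusted p = 0.675) and Mki67 (-0.49, adjusted p = 0.814) did not pass. In G1, the kinase Cdk4 (-1.51) and cyclins Ccnd3 (-1.63) and Ccnd2 (-1.30) fell, and the inhibitor Cdkn2c rose by 2.85, from 10.12, 9.70 and 10.19 to 12.75, 13.04 and 12.76. The inhibitor Cdkn1b rose from 6.06, 5.06 and 5.37, below background, to 7.45, 7.95 and 6.94, which were close to the guide, so the bound on its rise is only 0.02. With RIN as a covariate the calls numbered 6 of 21 for replication and 4 of 19 for mitosis, and the list medians stayed between -1.26 and -0.87 over the alternatives. These are bulk samples, in which fewer cells of a kind and less RNA per cell cannot be told apart.

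The supply side of protein synthesis was lower as well. Of 14 cytosolic aminoacyl-tRNA synthetases, which load amino acids onto tRNAs, 9 fell and 0 rose (median -1.15). Wars, for tryptophan, read 12.84, 12.65 and 12.12 in dish cells and 10.98, 10.18 and 10.10 in subcutaneous cells, a fall of 2.12. Yars fell by 1.81, Sars by 1.60, Mars1 by 1.25 and Cars by at least 0.60. Wars is also an interferon-gamma target. It fell while Psme1 rose, and a part of interferon in either was not tested. Of 17 genes of the ATF4 amino acid response 9 fell and 0 rose (median -0.99). The amino acid transporter heavy chain Slc3a2 read 15.25, 15.04 and 15.28 against 13.46, 12.81 and 12.95 (-2.12). The serine synthesis enzymes Psat1 (-1.92) and Phgdh (-1.67) and the one-carbon enzyme Mthfd2 (-1.51) fell, while Atf4 itself was at 0.05 (adjusted p = 0.932) and Ddit3 at -1.38 (adjusted p = 0.073, called under 6 of the alternatives). Asparagine synthetase (Asns) fell by 1.14, with an adjusted p of 0.0719 with RIN as a covariate. With that covariate 5 synthetases and 5 amino acid response genes were called.

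**Figure D4:**
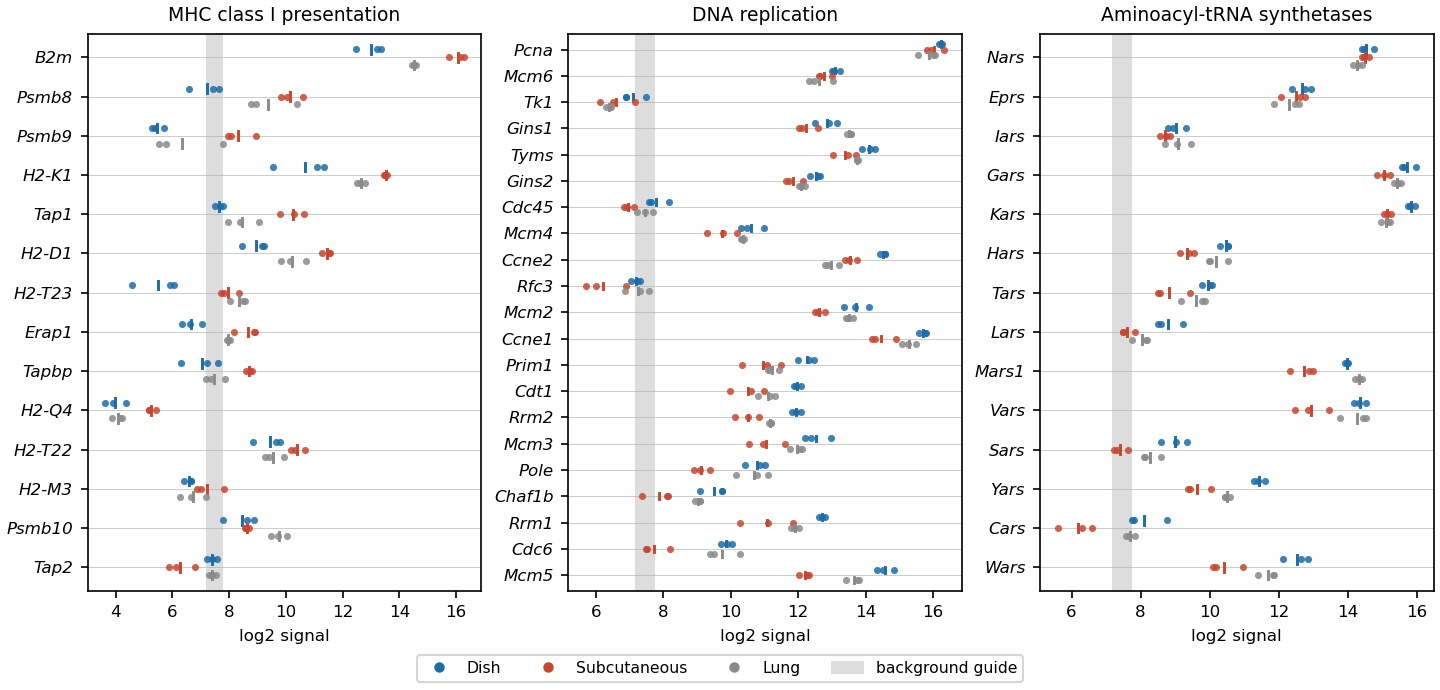
Log2 signals of MHC class I (left), DNA replication (middle) and aminoacyl-tRNA synthetase genes (right), each ordered by the difference between subcutaneous and dish cells. Dots are arrays, ticks are group means (n = 3), and the grey band is the background guide. Subcutaneous dots lie right of dish dots for the 10 class I genes that rose and left of them for the 13 replication and 9 synthetase genes that fell. Called or not, 12 of 14 class I genes were separated upward, and 18 of 21 replication and 11 of 14 synthetase genes downward. Over all 19505 genes 2770 were separated upward and 2941 downward.

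The amino acid response element was searched as TGATGNAA on both strands. It was found in 3 of the 9 genes that fell, in 3 of 15 list genes with a promoter in the table, and in 3.44% of 15691 tested genes. The Asns promoter, chr6:7693210-7693459 on the minus strand, is shown as a long-studied example, with the match, 23 bases before the start, in capitals.
Asns: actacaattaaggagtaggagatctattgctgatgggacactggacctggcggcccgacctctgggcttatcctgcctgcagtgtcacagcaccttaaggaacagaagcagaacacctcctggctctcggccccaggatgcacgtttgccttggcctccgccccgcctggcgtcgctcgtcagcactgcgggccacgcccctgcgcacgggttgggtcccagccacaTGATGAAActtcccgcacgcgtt

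Ribosome assembly genes fell in part: 5 of 18 fell and 0 rose (median -0.67), led by the RNA polymerase I subunit Polr1a (9.82, 9.85 and 9.54 against 7.43, 6.95 and 6.50, a fall of 2.78), Rrp9 (-2.59) and Nop2 (-2.12). Called lower were 3 of the 18 with RIN as a covariate, and 9 with the filter on dim genes or with an intensity trend. Myc differed by -0.42 (adjusted p = 0.324). Of 10 chaperones Hsph1 (-1.61) and Hspa9 (-1.33) fell, and 4 were called lower with the filter on dim genes. In the unfolded protein response, 1 of 16 rose, a call lost without dish replicate 3 or with RIN as a covariate, and 1 fell. The chaperone Hspa5 was at -0.61 (adjusted p = 0.294); the chaperone Hyou1 fell by 2.04.

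Of 18 respiratory chain genes 5 fell and 0 rose (median -0.41), among them Sdha of complex II (at least 0.83 lower) and Uqcrc1 of complex III, which fell by 1.48, from 14.68, 14.59 and 14.52 to 13.62, 12.91 and 12.82. The count was 3 with RIN as a covariate, and 8 with the filter on dim genes or with an intensity trend. Of 10 TCA cycle genes 2 rose and 3 fell, and with RIN as a covariate 1 was called in each direction; 1 was called higher without dish replicate 2 or 3 or subcutaneous replicate 1, and 1 lower without dish replicate 1. The selenoenzyme thioredoxin reductase (Txnrd1) fell by 2.59, from 11.69, 11.44 and 11.77 to 9.61, 8.93 and 8.61. The transferrin receptor (Tfrc), the route of iron uptake, read 9.59, 9.26 and 9.05 against 7.42, 5.42 and 6.17, a fall of at least 1.79. Of 13 p53 target genes 1 rose and 2 fell (median -0.23), with 1 to 3 called higher and 2 to 3 lower over the alternatives. Among these targets Phlda3 fell by at least 1.05, while Cdkn1a was at 1.14 (adjusted p = 0.0551, called under 5 of the alternatives). Of 12 autophagy genes 3 rose and 0 fell, led by Atg7 (1.99). Of 20 lysosomal genes 4 rose, led by progranulin (Grn, 1.15), and 1 fell, Gpnmb (-5.24), with a list median of -0.04. With RIN as a covariate 1 autophagy gene and 1 lysosomal gene were called higher. Without dish replicate 3 or subcutaneous replicate 2 the counts were 1 for autophagy and 2 for the lysosome, and the lysosomal count was 2 without subcutaneous replicate 1 and 1 without subcutaneous replicate 3. In the lists not yet described, 1 of 11 Nrf2 genes rose and 1 fell (median -0.37), with 1 to 3 called lower over the alternatives. The rise was that of the glutathione reductase gene Gsr (0.99), which lost its call under 8 of 18 alternatives (adjusted p up to 0.109). Of 8 Notch genes 2 rose, the receptor gene Notch2 (1.31) and Nrarp (1.32), which was below background on all 6 arrays; 1 was called with the filter on dim genes or without dish replicate 2 or 3 or subcutaneous replicate 1 or 3. Of 8 complement genes C2 (1.49) and C1s1 (1.36) were called while below background on all 6 arrays, and the filter on dim genes left 0 called.

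Markers of other cells that a tumour sample can carry were followed in 16 lists. In 14 of the 16, with 130 measured genes, no gene was called by limma in either direction, while 8 were higher and 5 lower at an unadjusted p under 0.05. Over the 18 alternatives 4 of these lists had 1 gene called higher and 1 list had 1 called lower under at least 1 setting. Among all 19505 genes 12.9% were called, and 5006 had an unadjusted limma p under 0.05. Of the 12534 genes below background on all 6 arrays only 448 were called. Few calls among dim markers therefore do not measure host cell content, which was not tested. The leukocyte gene Ptprc, the macrophage genes Adgre1 and Csf1r, the endothelial genes Pecam1 and Cdh5, the keratinocyte genes Krt5 and Krt14, the fat cell gene Adipoq, the muscle genes Acta1 and Ckm, and the lung genes Sftpc and Nkx2-1 lay below the background guide on all 6 arrays. Ptprc read 5.26, 5.70 and 5.29 on the subcutaneous arrays and Pecam1 4.04, 4.64 and 5.17. On average over the 6 leukocyte genes the subcutaneous arrays ranged from 4.81 to 5.33 and the dish arrays from 4.98 to 5.25. Over 12 endothelial genes the ranges were 3.96 to 4.52 and 3.84 to 4.05, and over 16 monocyte and macrophage genes 4.69 to 4.91 and 4.57 to 4.84. In the skeletal muscle list Tnnt3 and Mylpf were called higher while below background on all 6 arrays, and these calls were lost under 4 and 7 alternatives (adjusted p up to 0.0674 and 0.143).

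The fibroblast list was split. Of 14 measured genes, Dcn, Lum and the matrix gene Dpt (at least 0.66) rose and the PDGF receptor Pdgfrb fell (-1.17; lost under 8 of 18 alternatives, adjusted p up to 0.309). The other 10, among them Thy1, Fap, Col14a1 and Pi16, were below background on all 6 arrays and not called. On average over the list the subcutaneous arrays ranged from 6.42 to 6.66 and the dish arrays from 4.87 to 4.89. These averages include Dcn (9.59) and Lum (7.40), and the median difference of the list was 0.47. Krt8, Krt18 and Vim were chosen as a check for tumour cells, with earlier results of these data known. Of these, Krt8 and Vim were above background on all 6 arrays. Krt18 was below it on all dish arrays and above it on all subcutaneous arrays. The mesenchymal genes Prrx1 and S100a4 were also above background on all 6. Whether these signals come from tumour cells alone was not tested.

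**Figure D5:**
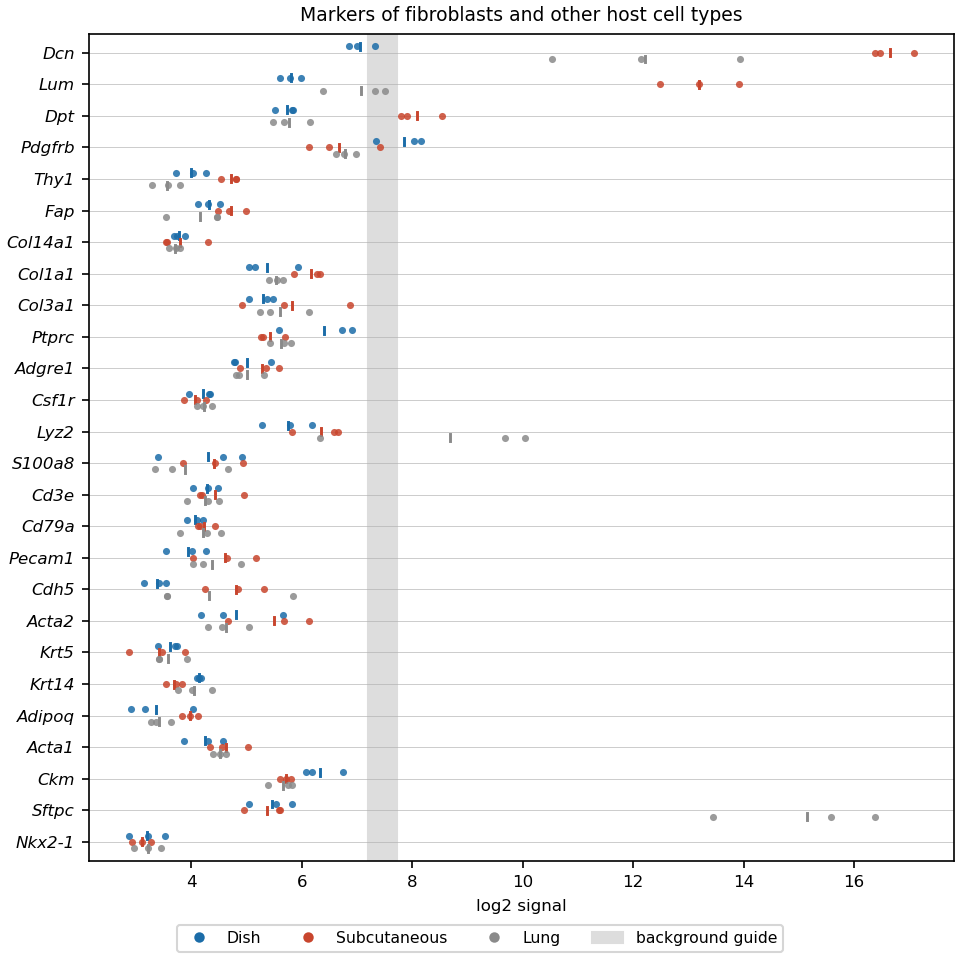
Log2 signals of fibroblast markers, from Dcn to Col3a1, and of markers of leukocytes, vessels, muscle, skin, fat and lung. Dots are arrays, ticks are group means (n = 3), and the grey band is the background guide. Dcn, Lum and Dpt are the genes whose 3 subcutaneous dots lie above the band, and Sftpc and Lyz2 exceed it on lung arrays.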

How the data were processed

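The deposited values are log2 signals of 1-colour, biotin-labelled arrays of total RNA, 9 arrays in 3 groups of 3. The log2 scale was read from the range of the deposited values, and for normalization, software and genome build the entry is: not given in the sources used here. Genes were named through the platform annotation: 19572 of 22206 gene features carried 1 symbol, 2634 carried none, and where 55 symbols had more than 1 feature, the brightest on average was kept, which left 19505 genes. The number of arrays limits the precision.

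Group means were fitted to all 9 arrays with limma 3.58.1 (lmFit, eBayes) in R 4.3.3, with p-values adjusted over all 19505 genes by the Benjamini-Hochberg method and calls made at 0.05. The fit was tested on simulated data. Background was the 90th percentile of the 5222 negative control features of each array, and no gene was left out for it. The text names the 15 largest rises and the 15 largest falls among called genes whose groups do not overlap and whose brighter group lies above background on all 3 arrays, up to 6 called genes of each list by absolute difference, and the genes that define a list. Lists held 802 gene entries in 55 lists, of which 738 were measured. Members and lists were chosen with earlier results of these data known. Alternatives were other scaling, filters and variance models, array weights, RIN as a covariate, the replicate number as a block, every feature tested by itself and leaving out each array in turn.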

Additional observations from a re-analysis of the deposited data

Results flagged for a closer look

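Of the 2634 gene features without a symbol, which took no part in the comparison of named genes, 143 were called higher and 105 lower in subcutaneous cells when every feature was tested by limma. Feature TC0700003909.mm.2 is given because its subcutaneous signal stood far above the dish controls. It read 3.18, 3.38 and 3.67 on the dish arrays, 10.83, 15.94 and 12.81 on the subcutaneous arrays and 14.02, 14.84 and 16.86 on the lung arrays, a log2 difference of 9.78 between subcutaneous and dish cells (limma adjusted p = 3.92e-05). The subcutaneous values spread widely, and the ranges of the 2 tumour sites overlapped. Feature TC0200001843.mm.2 had the opposite direction: it read 10.73, 9.96 and 9.09 on the dish arrays, 5.90, 5.42 and 5.67 on the subcutaneous arrays and 7.00, 6.74 and 6.13 on the lung arrays, a difference of -4.26 (limma adjusted p = 1.65e-05). What these features measure is not known here.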

How the results depend on the processing

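The count of called genes between subcutaneous and dish cells was 2513 and stayed within 1.5 times of that under 16 of 18 alternatives. It was 1280 (674 higher and 606 lower) with RIN as a covariate, and 1639 (830 higher and 809 lower) without dish replicate 2. Leaving out 1 array at a time gave 1639 to 2738 called genes, 830 to 1357 higher and 809 to 1381 lower. Against the lung the count was 2927, with 1476 to 2928 when 1 array was left out, 1476 without lung replicate 1 and 1938 without lung replicate 2. The groups share replicate numbers, but samples with the same number did not deviate together: the correlation of their deviations from the group means was 0.0481, -0.0363 and 0.0854 for replicates 1, 2 and 3, against -0.138 to 0.0977 for other pairs, and 1 of 3 correlated best with its own number. With the replicate number as a block 2475 genes were called (1232 higher, 1243 lower), and 2852 against the lung. Quantile normalization gave 2694 (1302 higher, 1392 lower). Of 246 called list members and named genes, 163 were called under every alternative they entered, 83 lost the call under at least 1 (74 with RIN, 8 with the block) and 0 changed sign; of 559 list genes not called, 82 were called under at least 1. The median difference of all genes lay between -0.05 and 0.00080 under every setting. Of the 19505 genes 12534 were below background on all 6 arrays, where a difference was not readily detectable. The cause of the lower counts was not tested.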

Other observations

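The families below were picked after their values had been seen, so their counts are descriptions only, beside 6.41% of all genes called higher and 6.47% called lower. Of 7 genes of caveolae, the small membrane pits built of caveolins and cavins, 3 rose and 1 fell. Cav1, the main caveolin, read 7.01, 6.98 and 6.60 in dish cells, below background, and 9.99, 10.52 and 9.80 in subcutaneous cells, a rise of at least 2.68 (limma adjusted p = 1.11e-05). In lung tumour cells it read 6.56, 6.64 and 7.14, close to the dish. Cavin2 went from 6.28, 5.95 and 5.53 to 9.67, 9.57 and 8.57, at least 1.84 higher, and Cavin3 rose by 2.55. Cavin1, the coat protein needed for the pits to form, went the other way and fell by 1.46, from between 8.85 and 9.25 to 7.64, 7.12 and 7.97. Of 5 genes of the PDZ and LIM domain family, adaptors of the actin cytoskeleton, 3 rose and 0 fell (median 2.55): Pdlim5 by 3.61, Pdlim2 by 3.07 and Pdlim1 by 2.55. The 5 peptidylarginine deiminases, which turn arginine into citrulline in proteins, had 3 rising: Padi4 by 3.35, from 9.55, 9.39 and 9.73 to 12.78, 12.51 and 13.45, Padi2 by at least 1.29, and Padi1 by 1.09 while below background on all 6 arrays and with its call lost under 5 alternatives (adjusted p up to 0.272).

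Of 7 subunits of the CCT chaperonin, which folds actin and tubulin, Cct3 fell by 2.52, from 13.29, 12.66 and 12.36 to 10.38, 10.05 and 10.32, and Cct7 fell by 1.52. On the lung arrays Cct3 read 12.19, 12.19 and 12.06, and its level under the skin differed from that by -1.90 (adjusted p = 0.000667). Of 14 Psmd genes, which code for the regulatory cap of the proteasome, 5 fell and 1 rose. Psmd3 read 13.64, 13.54 and 14.01 in dish cells and 11.98, 11.77 and 11.30 in subcutaneous cells, a fall of 2.04, and Psmd2 and Psmd13 fell by 1.99 and 1.62. The calls of Psmd12 (-1.15), Psmd6 (-0.91) and Psmd14 (1.08) were lost under 7, 3 and 3 alternatives (adjusted p up to 0.279, 0.118 and 0.0829). Of 8 semaphorin genes of classes 3 and 7, guidance cues of axons and vessels, 3 rose. Besides Sema7a these were Sema3a (2.27) and Sema3e, whose rise of 0.90 lost its call under 8 alternatives (adjusted p up to 0.126).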
